A study of Mus musculus with 18 samples.

Results

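A set of 10 transcription factor genes of the naive pluripotency network was followed through polysome gradients of mouse embryonic stem cells (ESCs) with and without microRNAs (miRNAs). They are Pou5f1, Nanog, Sox2, Klf2, Klf4, Klf5, Esrrb, Tfcp2l1, Tbx3 and Zfp42. The genes were found by name, as the rows of the deposited count table whose gene identifiers carry these symbols. The set itself was put together with earlier results of these data known. These are 10 of 51467 genes in the table and 10 of the 12851 genes with enough reads to be tested.

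The comparison was between a pair of cell lines. Wild-type (WT) cells were V6.5, an established mouse ESC line, and the Dgcr8 knockout (KO) cells were a single line made in earlier work, so genotype and line cannot be told apart. Both were grown in 15% serum with LIF and 2i, a pair of inhibitors of MEK (PD0325901) and GSK3 (CHIR99021), and before lysis both were given cycloheximide (100 ug/ml for 2 minutes) to stop ribosomes in place. Lysates were run on sucrose gradients of 10 to 50%, and each of 3 gradients per genotype was divided into monosomes, low polysomes (2 to 4 ribosomes) and high polysomes (4 or more), which gave 18 libraries in 6 groups of 3. No label says that the gradients came from separate cultures, so p-values measure the spread between these samples, which may be technical.

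Naive ESCs hold a network of factors that activate each other and keep differentiation genes silent. OCT4 (encoded by Pou5f1) and SOX2 bind DNA as partners, and NANOG stabilises the state they maintain. The Krüppel-like factors, ESRRB, TFCP2L1 and TBX3 carry the signals of the culture medium into this core: LIF acts through STAT3 on Klf4 and Tfcp2l1, the MEK inhibitor favours Klf2, and the GSK3 inhibitor relieves TCF7L1 repression of Esrrb. Zfp42 encodes REX1, a zinc finger protein widely used as a mark of the naive state. DGCR8 is needed to process primary miRNA transcripts, so Dgcr8 KO cells lack canonical miRNAs, including the miR-290 family that dominates mouse ESCs. A miRNA base pairs through its seed with messages, mostly in the 3′ UTR, and lowers their translation and stability.

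Because the perturbation removes miRNAs, the seeds and their matches in the factors' own 3′ UTRs are given first. The mature sequences below are from RefSeq (GRCm38) and their seeds, bases 2 to 8, are in capitals. miR-294-3p (chr7:3220691-3220712, plus strand) stands for the miR-290 family and miR-92a-3p (chr14:115044476-115044496, plus strand) for the miR-92 family, the family with sites in the most members.
miR-294-3p: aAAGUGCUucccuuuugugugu
miR-92a-3p: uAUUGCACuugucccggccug

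A 3′ UTR site was an exact match to bases 2 to 8 of the miRNA (AGCACTT for miR-294-3p and GTGCAAT for miR-92a-3p) or to bases 2 to 7 followed by A (GCACTTA and TGCAATA), on the sense strand only, and a site with both is called an 8mer. Tfcp2l1 was the 1 factor of 10 with a miR-290 family site, against 19.3% of the 11676 3′ UTRs of tested genes. A miR-92 family site was found in 5 of the 10, against 12.6% of those 3′ UTRs. This family was put forward because it had sites in the most members, so its share cannot be read as an excess. These matches were not tested and describe letters, not sites shown to be used. The site stretches, with the match in capitals and 10 bases on either side, are given for both families because they are the stretches that the miRNAs missing from KO cells could pair with. The stretches lie at chr1:118683195-118683221 (plus strand, Tfcp2l1), chr8:72321123-72321150 (plus strand, Klf2), chr4:55527357-55527384 and chr4:55527676-55527702 (minus strand, Klf4), chr6:122714377-122714403 (plus strand, Nanog), chr5:119683943-119683969 (plus strand, Tbx3) and chr1:118683720-118683746 (plus strand, Tfcp2l1), all in 3′ UTRs on GRCm38.
Tfcp2l1, miR-290: tcgatggccgAGCACTTcccaactgcg
Klf2, miR-92: tttcaaaatgGTGCAATAattgacttat
Klf4, miR-92, 8mer: ggtttcagatGTGCAATAatttgtacaa
Klf4, miR-92, second site: gtttcgatgaTGCAATAcacacgtaaa
Nanog, miR-92: agctcagataTGCAATAagttcaaggc
Tbx3, miR-92: taactgtataTGCAATAacaaggtttt
Tfcp2l1, miR-92: gaagtagaagGTGCAATcagaagtctg

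The 8mers of Klf2 and Klf4 share the 8 letters GTGCAATA. Of the other families searched, the miR-17 family had a site in Tbx3, let-7 had sites in Esrrb, miR-21 in Sox2, the miR-16 and miR-130 families in Tfcp2l1, the miR-200b family in Sox2, Klf4 and Tfcp2l1, and miR-134 in none of the 10. Sites of these other families were found in 11.1% (miR-21) to 26.6% (miR-16) of the 3′ UTRs of tested genes. No site of these families was found in the 3′ UTRs of Pou5f1 (221 bases), Klf5 (1707 bases) or Zfp42 (533 bases). The 3′ UTR of Tfcp2l1, at 7734 bases, was the longest of the 10.

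Library totals ran from 1151649 to 4984833 counts, with the WT monosome libraries the smallest. Dgcr8 itself kept 38 to 183 reads in each KO library, against 67 to 251 in each WT library. Its level was lower in KO from monosomes to high polysomes (log2 -0.56, -0.45 and -1.01) and was called in high polysomes (adjusted p = 0.000276). Since the position of the deleted part is not given in the sources used here, these 3′ end reads do not check the genotype. The cells carried the ESC label in their transcripts: all 12 ESC markers examined were tested and their summed level was 3358 to 4899 CPM (counts relative to the library total, scaled with TMM factors) in every WT library and 3643 to 4210 CPM in every KO library. Of 8 primitive endoderm markers 2 passed the filter, with sums of 2.72 to 13 CPM, and 4 of 8 trophoblast markers passed, with sums of 157 to 240 CPM. Of the 12 ESC markers, 2, 3 and 4 were called between KO and WT in monosomes, low and high polysomes. Of all genes tested, 18.1%, 25.0% and 33.1% were called in these fractions. The called ESC markers were Lin28a and Tcl1, lower in KO in all 3 fractions, Dppa5a, lower in high polysomes, and Gdf3, higher in both polysome fractions. Lin28a stood at 41 to 186 reads in the WT libraries and 3 to 9 in 8 of the 9 KO libraries. The ninth, the low polysome library of KO gradient 1, held 48 Lin28a reads together with 28 reads of Col3a1 and 13 of Col1a2, collagen genes of fibroblasts that had 0 to 3 reads in each of the other 17 libraries. Col1a1, the third collagen gene of the list, had 16 reads there, 1 to 6 in the other KO libraries and 3 to 19 in the WT libraries, and was called lower in KO in all 3 fractions (log2 -2.78, -2.22 and -1.59). The 8 fibroblast markers, of which 3 were tested, summed to 12.3 to 16.9 CPM in WT libraries, 4.66 to 9.79 in KO monosomes, 7.37 to 28.6 in KO low polysomes and 11.6 to 12.4 in KO high polysomes. The part of these markers in the results was not tested. Values of the 10 factors without KO gradient 1 are given where they change whether a value printed here passed. For the other genes named and for the gene lists, no values without it are given. Markers of the 2-cell-like state summed to 0.318 to 2.65 CPM in WT and 6.15 to 15.3 CPM in KO libraries, on 2 of 8 genes tested, and Zscan4f, Gm4340 and Tdpoz4 of that list were at 0 in every library. In bulk libraries, fewer cells with a transcript and less of it per cell cannot be told apart.

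Of the 10 factors, 9 were abundant messages. The mean level over the 18 libraries ran from 138 CPM for Klf5 to 798 CPM for Klf2, which put these 9 at or above the 87.7th percentile of the genes tested. Pou5f1 was the lowest of the 10 in every group, with a mean of 44.7 CPM (64.4th percentile) that rested on 34 to 245 reads per library. Reads at 3′ ends do not grow in number with transcript length, but these CPM values depend on which 3′ ends the annotation counts and which reads align to 1 place. Whether the low count of Pou5f1 gives the true level of its message could not be settled from counts. The last 500 bases of the Pou5f1 transcript (chromosome 17, 35506018 to 35510772, plus strand) shared 12 of 451 windows of 50 bases exactly with the pseudogene Gm5712, and reads that align to more than 1 place had been dropped. For Klf5, the annotation used for counting ended 1631 bases short of the 3′ end of the later transcript model, so reads at that distal end were not counted. Klf5 and the other 8 factors shared no such window with another gene, although 130 exonic bases of Tfcp2l1 overlap Gm23497 on the same strand. Of the 1362 exonic bases of Pou5f1, 291 overlap Gm19553 on the opposite strand, and reads had been counted by strand. Only exact matches among annotated transcripts were searched, not the whole genome.

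**Figure D1:**
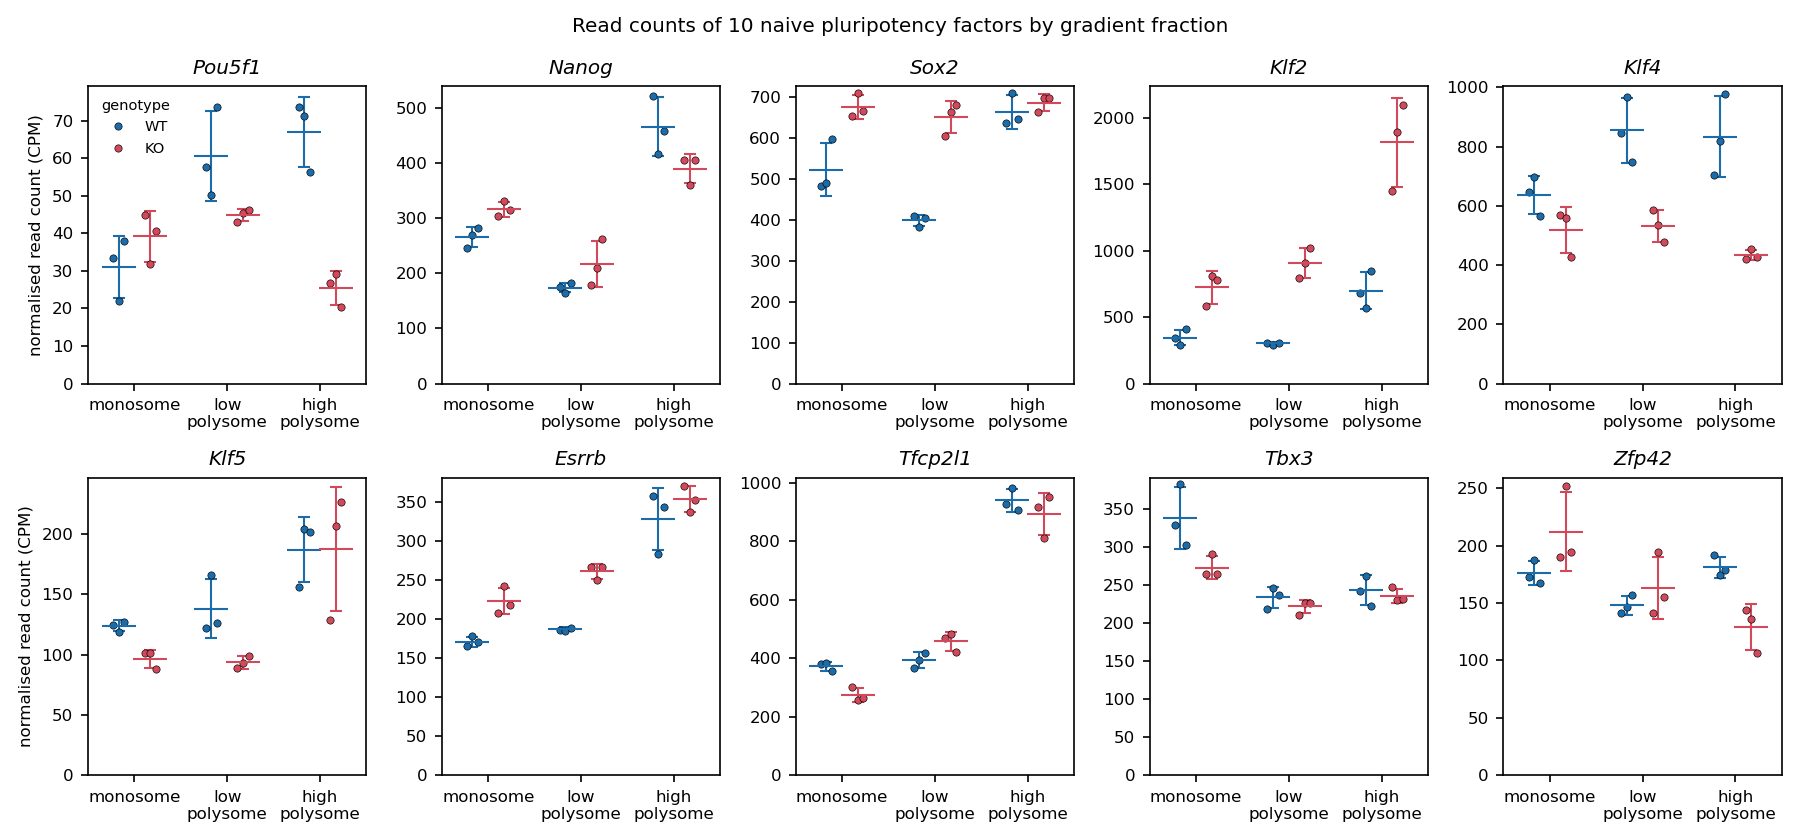
Normalised read counts (CPM, y axis, linear, starting at 0, with a separate scale for each gene) of the 10 factors in monosome, low polysome and high polysome libraries of WT (blue) and Dgcr8 KO (red) ESCs. Points are single libraries, and horizontal marks with bars are the mean and SD (n = 3); Klf2 is higher in all 9 KO libraries than in the WT libraries of the same fraction, and the KO high polysome libraries of Pou5f1 (20.5 to 29.2 CPM) lie below those of WT (56.4 to 73.7 CPM).

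How heavily each message was loaded in WT cells was read from the translation level, the ratio of high polysome to monosome reads. In WT cells Tfcp2l1, Pou5f1 and Klf2 were the members called higher in high polysomes than in monosomes. Genes were called where limma gave an adjusted p under 0.05 and the absolute log2 fold change was over 1. In this comparison 30.1% of all genes tested were called, 10.7% higher and 19.3% lower in high polysomes. From monosomes through low to high polysomes, Tfcp2l1 stood at 372 ± 15.5, 393 ± 27.5 and 939 ± 37.8 CPM (mean ± SD, n = 3), a translation level of 1.33 on the log2 scale (SE 0.11, adjusted p = 1.73e-13). Klf2 rose from 346 ± 59.5 CPM in monosomes to 698 ± 141 in high polysomes, a log2 ratio of 1.01 (SE 0.15, adjusted p = 3.09e-07). Pou5f1 rose from 31.1 ± 8.29 CPM to 67.1 ± 9.41 (log2 ratio 1.15, SE 0.21, adjusted p = 1.59e-05). The 3 messages thus lay 2.02 to 2.52 times higher in WT high polysomes than in monosomes.

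The WT ratios of Pou5f1 and Klf2 stood close to the fold threshold. Without WT gradient 2 the log2 ratio of Pou5f1 was 0.90, and without WT gradient 3 that of Klf2 was 0.97, each below the threshold of 1. Klf2 also fell short of it with a 10 CPM filter (0.93) and with only the libraries compared in the fit (0.98). Without WT gradient 2, Esrrb passed it at 1.12. With all gradients Esrrb stood at 0.93 and Nanog at 0.80 on the log2 scale, both past the adjusted p alone (1.41e-08 and 7.73e-07). Only Tbx3 had a negative ratio past the adjusted p, -0.48 (SE 0.11, adjusted p = 0.00049), with 338 ± 40.5 CPM in WT monosomes against 243 ± 19.7 in high polysomes. The ratio of Zfp42 was 0.04, with a 95% interval of -0.24 to 0.32. Over the 10 factors the median log2 translation level in WT was 0.70, against -0.01 over all genes tested.

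In KO cells the members called for their translation level were Tfcp2l1 and Klf2, both higher in high polysomes. This comparison called 43.0% of all genes, 17.5% higher and 25.5% lower. Tfcp2l1 stood at 274 ± 24.9 CPM in KO monosomes and 893 ± 72.3 in high polysomes (log2 ratio 1.71, SE 0.11, adjusted p = 3.04e-17). Klf2 stood at 723 ± 124 and 1813 ± 332 CPM (log2 ratio 1.32, SE 0.14, adjusted p = 4.23e-11). Both therefore had a higher CPM in high polysomes than in monosomes in either genotype. Without KO gradient 1 the ratio of Klf5 was 1.20 and it was called as well, whereas with all gradients it was 0.93. Pou5f1 and Zfp42 had negative ratios in KO cells, -0.63 (adjusted p = 0.00426) and -0.73 (adjusted p = 7.78e-06). Leaving out 1 gradient at a time, the adjusted p was up to 0.144 for Pou5f1 and 0.00065 for Zfp42. Over the 10 factors the median was 0.16, against -0.07 over all genes.

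The question of the series is what the loss of miRNAs does to messages, and the first comparison was KO against WT within each fraction. Klf2 was higher in KO cells in all 3 fractions, and Pou5f1 was lower in high polysomes. No other factor was called in any fraction. From monosomes through low to high polysomes the calls among the 10 factors were thus 1, 1 and 2, where 18.1%, 25.0% and 33.1% of all genes tested were called. The medians of the 10 log2 changes were 0.25, 0.17 and -0.05, beside -0.05, 0.00 and -0.08 over all genes. Counted by adjusted p alone, 5, 7 and 4 of the 10 passed, where 37.3%, 52.3% and 60.7% of all genes did.

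The CPM ranges of KO and WT libraries did not overlap for 8 factors in monosomes (5 higher, 3 lower in KO), 7 in low polysomes (4 higher, 3 lower) and 5 in high polysomes (1 higher, 4 lower). Among all genes tested, 49.2%, 57% and 63.6% did not overlap in these fractions.

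**Figure D2:**
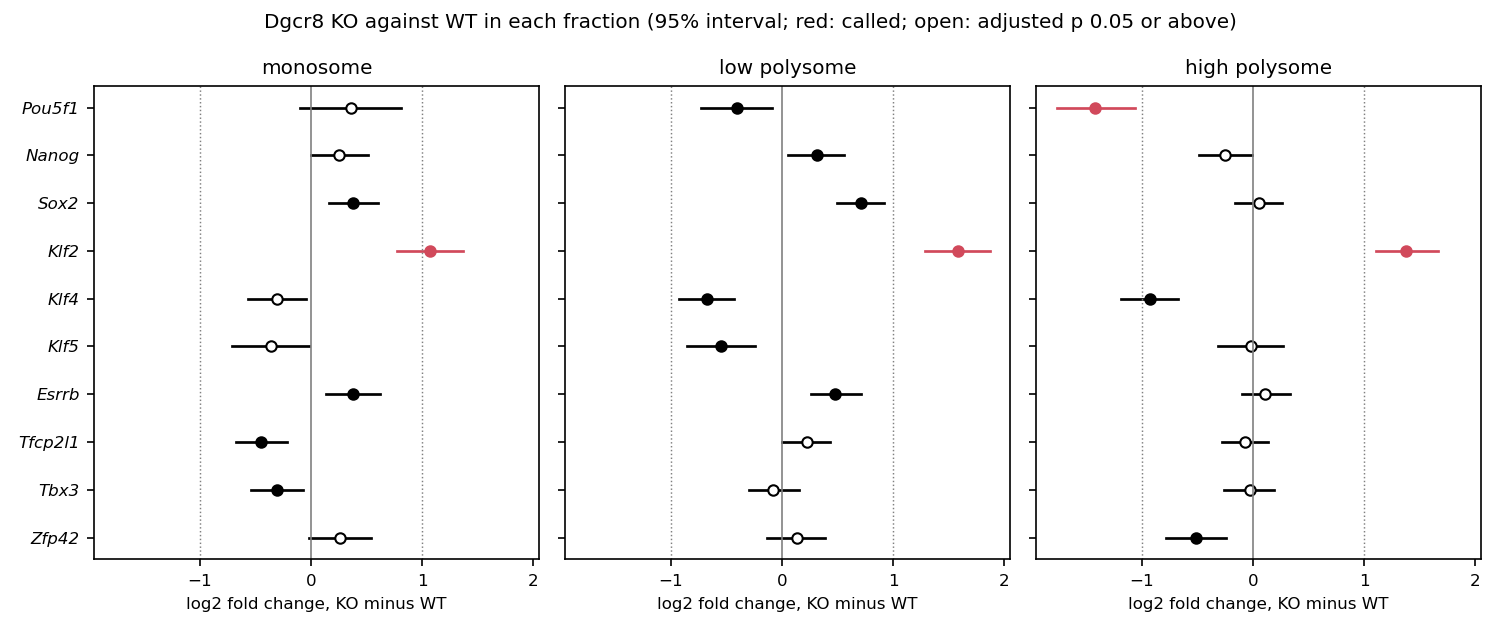
Log2 fold change of KO against WT (x axis) for each factor (rows) in the 3 fractions, with the 95% interval from limma. Dotted lines mark the fold threshold, red marks called genes and open circles an adjusted p of 0.05 or above; Klf2 is red in all 3 panels at 1.07, 1.58 and 1.38, and Pou5f1 is red in high polysomes alone at -1.42.

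Klf2, the Krüppel-like factor favoured by MEK inhibition, was the factor with the largest increase. Its monosome levels were 341, 290 and 408 CPM in WT gradients 1 to 3 and 581, 809 and 779 CPM in KO. In low polysomes they were 308, 292 and 306 CPM in WT and 795, 906 and 1016 in KO. In high polysomes they were 681, 567 and 846 CPM in WT and 1448, 1895 and 2097 in KO. Every KO library lay above every WT library of its fraction, and the KO monosome and WT high polysome ranges overlapped. The fitted folds were 2.10 in monosomes (log2 1.07, SE 0.15, adjusted p = 2.81e-07), 2.99 in low polysomes (log2 1.58, SE 0.14, adjusted p = 2.59e-12) and 2.61 in high polysomes (log2 1.38, SE 0.14, adjusted p = 2.02e-11). Without WT gradient 2 the monosome value was 0.99 and was no longer called (adjusted p = 1.47e-05). The 3′ UTR of Klf2, 737 bases on chromosome 8, holds the miR-92 8mer printed above.

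Klf4 is the sister factor downstream of LIF and STAT3, and its 3′ UTR of 982 bases on chromosome 4 holds the same 8 letters. Its values went the other way from those of Klf2. In high polysomes Klf4 stood at 705, 820 and 977 CPM in WT and 419, 454 and 427 in KO, without overlap (log2 -0.93, SE 0.12, adjusted p = 2.6e-08). In low polysomes it stood at 845, 969 and 750 CPM in WT and 586, 537 and 477 in KO (log2 -0.68, SE 0.12, adjusted p = 1.17e-05). In monosomes the ranges overlapped, at 567 to 696 CPM in WT and 428 to 568 in KO (log2 -0.31, adjusted p = 0.0579, and -0.38 with 0.0262 without KO gradient 1). None of these passed the fold threshold, but without WT gradient 1 the high polysome change was -1.06 and was called, as it was at -1.16 when libraries were scaled by total counts. Klf4 was thus among the most abundant of the 10 in WT cells, and Klf2 was the most abundant in each KO fraction.

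Klf5, a Krüppel-like factor that also acts in early embryonic lineages, had lower values in KO monosomes (96.4 ± 7.53 against 124 ± 4.47 CPM) and low polysomes (93.6 ± 5.27 against 138 ± 24.5 CPM), and neither was called (log2 -0.36 and -0.55, adjusted p = 0.0899 and 0.00255). Without KO gradient 1 the monosome value was -0.39 (adjusted p = 0.0457). Its high polysome levels were 156, 204 and 202 CPM in WT and 129, 207 and 227 in KO. The library of KO gradient 1 was the lowest of these 6, and the ranges overlapped. The fitted difference was -0.02, with a 95% interval of -0.32 to 0.27.

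Of the core factors, Pou5f1 changed with the fraction. Its monosome levels were 33.5, 21.9 and 38 CPM in WT and 45, 31.8 and 40.7 in KO, which overlap (log2 0.36, SE 0.23, adjusted p = 0.22). In low polysomes they were 57.8, 50.2 and 73.8 CPM in WT and 43, 45.5 and 46.2 in KO (log2 -0.41, SE 0.16, adjusted p = 0.0297). In high polysomes they were 73.7, 71.4 and 56.4 CPM in WT and 26.8, 29.2 and 20.5 in KO. The 3 KO libraries lay below the 3 WT libraries in both polysome fractions, and the high polysome fall, 2.67-fold, was called (log2 -1.42, SE 0.18, adjusted p = 5.73e-09). Leaving out 1 gradient at a time, it stayed between -1.55 and -1.24. These values rest on 81 to 94 reads in each KO and 177 to 198 in each WT high polysome library. The low polysome difference did not pass without KO gradient 1 (-0.38, adjusted p = 0.0671), KO gradient 3 (adjusted p = 0.0544) or WT gradient 3 (-0.26, adjusted p = 0.209).

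Sox2, which encodes the DNA-binding partner of OCT4, was higher in KO low polysomes, at 606, 664 and 682 CPM against 409, 382 and 405 in WT. The 2 sets did not overlap and the adjusted p was 3.33e-07, but the log2 difference of 0.71 (SE 0.10) was below the fold threshold. In monosomes it stood at 655 to 710 CPM in KO and 483 to 598 in WT (log2 0.38, adjusted p = 0.00501, and 0.0625 without WT gradient 1). In high polysomes the genotypes overlapped, at 663 to 699 and 637 to 711 CPM (log2 0.05, 95% interval -0.16 to 0.26). The Sox2 gene lies within Sox2ot on the same strand, with no exonic base shared.

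Nanog, the homeodomain factor of the core, was not called in any fraction. In low polysomes, where its level was lowest in both genotypes, it stood at 174 ± 8.43 CPM in WT and 217 ± 42.5 in KO (log2 0.31, adjusted p = 0.0368). In high polysomes it stood at 466 ± 53.1 CPM in WT and 390 ± 26.1 in KO (log2 -0.25, adjusted p = 0.062). The high polysome ranges did not overlap, whereas those of low polysomes did. Without KO gradient 1 the low polysome difference was 0.44 (adjusted p = 0.0038) and that of high polysomes -0.28 (adjusted p = 0.0466). The low polysome value did not pass when KO gradient 3 or any 1 of the WT gradients was left out (adjusted p up to 0.345).

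Esrrb, the orphan nuclear receptor released by GSK3 inhibition, stood at 165 to 178 CPM in WT and 208 to 242 in KO monosomes (log2 0.38, adjusted p = 0.0121) and at 184 to 189 and 250 to 267 CPM in low polysomes (log2 0.48, adjusted p = 0.000347). Neither reached the fold threshold, and the monosome value did not pass without WT gradient 1 (adjusted p = 0.0659). In high polysomes the ranges overlapped (log2 0.11, 95% interval -0.10 to 0.33). Tfcp2l1, a CP2-family factor, was lower in KO monosomes, at 302, 256 and 264 CPM against 380, 383 and 355 in WT (log2 -0.45, SE 0.12, adjusted p = 0.00188). It was on the other side in low polysomes, at 422 to 481 CPM in KO against 365 to 419 in WT (log2 0.22, adjusted p = 0.0888). Its high polysome levels overlapped (log2 -0.07, 95% interval -0.28 to 0.13). Tfcp2l1 was the member with both the miR-290 site and the longest 3′ UTR, and it was not called in any fraction.

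Tbx3, a T-box factor, had 338 ± 40.5 CPM in WT and 273 ± 15.5 in KO monosomes (log2 -0.31, adjusted p = 0.033), a difference that passed without WT gradient 3 but not when any other single gradient was left out (adjusted p up to 0.389). Its low and high polysome levels overlapped between genotypes, with differences of -0.08 (95% interval -0.30 to 0.15) and -0.03 (-0.26 to 0.19). Zfp42 had its difference in high polysomes, where KO libraries held 144, 136 and 106 CPM and WT libraries 192, 174 and 179, without overlap. That log2 difference was -0.51 (SE 0.13, adjusted p = 0.001), below the fold threshold. In monosomes its KO libraries, at 190 to 252 CPM, lay above those of WT, at 167 to 187 CPM (log2 0.26, adjusted p = 0.146).

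The second comparison asked whether loss of miRNAs changed how each message was spread over the gradient. The change in translation level is the interaction of genotype and fraction, the KO log2 ratio of high polysomes to monosomes minus that of WT. Pou5f1 was the only one of the 10 factors called, and its translation level fell. Across all genes tested 15.1% were called in this comparison. By adjusted p alone 4 of the 10 passed, all lower in KO (Pou5f1, Zfp42, Klf4 and Nanog), where 28.2% of all genes passed. The median of the 10 changes was -0.30, beside 0.01 over all genes.

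The translation level of Pou5f1 was 1.12, 1.67 and 0.56 in WT gradients 1 to 3 and -0.73, -0.12 and -0.97 in KO gradients. Pou5f1 CPM was thus higher in high polysomes than in monosomes in all 3 WT gradients, and lower in all 3 KO gradients. Its KO low polysome to monosome ratio was -0.06, 0.51 and 0.18, and its mean KO level was highest in low polysomes (44.9 CPM). CPM is relative to the library total, so these ratios compare Pou5f1 with other messages and do not show where its reads lay. The change in translation level was -1.77 on the log2 scale (SE 0.29, 95% interval -2.35 to -1.19, adjusted p = 7.74e-06), a 3.42-fold fall. It stayed between -2.07 and -1.50 when 1 gradient was left out at a time, and 2.6% of the genes tested had a change as low or lower.

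Zfp42 had translation levels of 0.14, -0.11 and 0.10 in WT and -0.39, -0.88 and -0.87 in KO, a change of -0.77 (SE 0.19, adjusted p = 0.00206). Klf4 went from 0.12, 0.24 and 0.79 in WT to -0.44, -0.30 and 0.00 in KO, a change of -0.62 (SE 0.18, adjusted p = 0.00744). Nanog went from 1.08, 0.62 and 0.70 to 0.42, 0.12 and 0.36, a change of -0.50 (SE 0.17, adjusted p = 0.025). In each of the 3 the KO gradients lay below the WT gradients, but the change did not reach the fold threshold. The adjusted p of Klf4 and Nanog was lost when single gradients were left out (up to 0.106 and 0.203). When libraries were scaled by total counts, Zfp42 was called at -1.10, in a scaling that moved the median of all genes by -0.329.

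Sox2 went from 0.40, 0.54 and 0.11 to 0.02, -0.02 and 0.07, without overlap, and its change of -0.33 did not pass the adjusted p (0.0953). Tfcp2l1, Klf5, Klf2 and Tbx3 had positive changes, of 0.38, 0.34, 0.31 and 0.27 (adjusted p = 0.0627, 0.272, 0.269 and 0.216). Without KO gradient 1 the changes of Klf5 (0.62, adjusted p = 0.0219) and Tfcp2l1 (0.43, adjusted p = 0.0492) passed the adjusted p. Klf2 reads therefore rose in every fraction with no called change in their spread, for which the 95% interval was -0.10 to 0.72. Those of Esrrb changed by -0.26, with an interval of -0.59 to 0.06. The gradients of the genotypes did not overlap for 8 of the 10 factors (5 lower, 3 higher in KO), which was so for 41.7% of all genes tested.

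**Figure D3:**
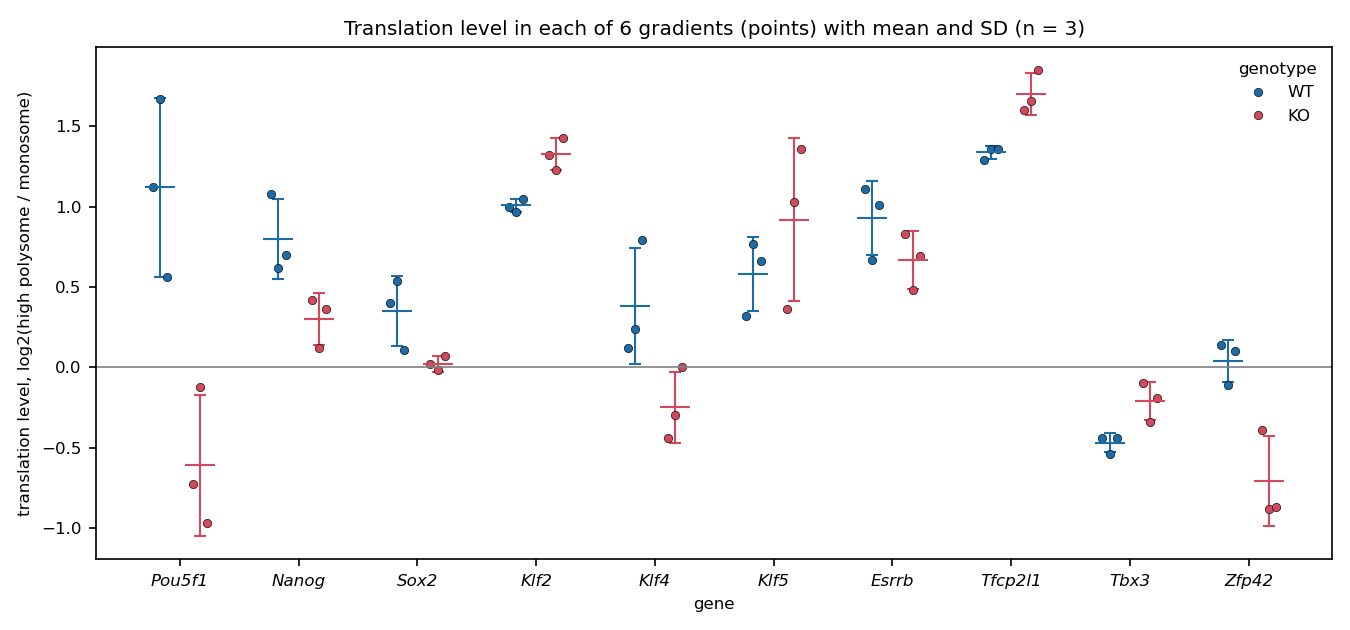
Translation level, the log2 ratio of high polysome to monosome CPM (y axis), of each factor in each WT (blue) and KO (red) gradient, with the mean and SD over 3 gradients. The Pou5f1 points lie between 0.56 and 1.67 in WT and between -0.97 and -0.12 in KO, while Klf2 and Tfcp2l1 lie at 0.97 or above in all 6 gradients.

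Across all protein-coding genes the change in translation level moved with the length of the coding sequence, so the factors were set beside genes of like length. The median change was -0.94 in the shortest length decile and 0.62 in the longest. The coding sequence of Pou5f1 has 1056 bases, in the fourth decile (median -0.15), and its change lay 1.62 below that median, at the 1.8th percentile of its decile. Klf4 (1449 bases) lay 0.73 below the median of its decile, at the 14.4th percentile, and Zfp42 (864 bases) 0.43 below, at the 24th. Klf2 (1062 bases) lay 0.47 above its own, at the 75th percentile. The changes of Nanog, Sox2, Esrrb and Tbx3 lay within 0.23 of their decile medians. This is a description with no test, and the part of coding length in the changes was not tested.

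**Figure D4:**
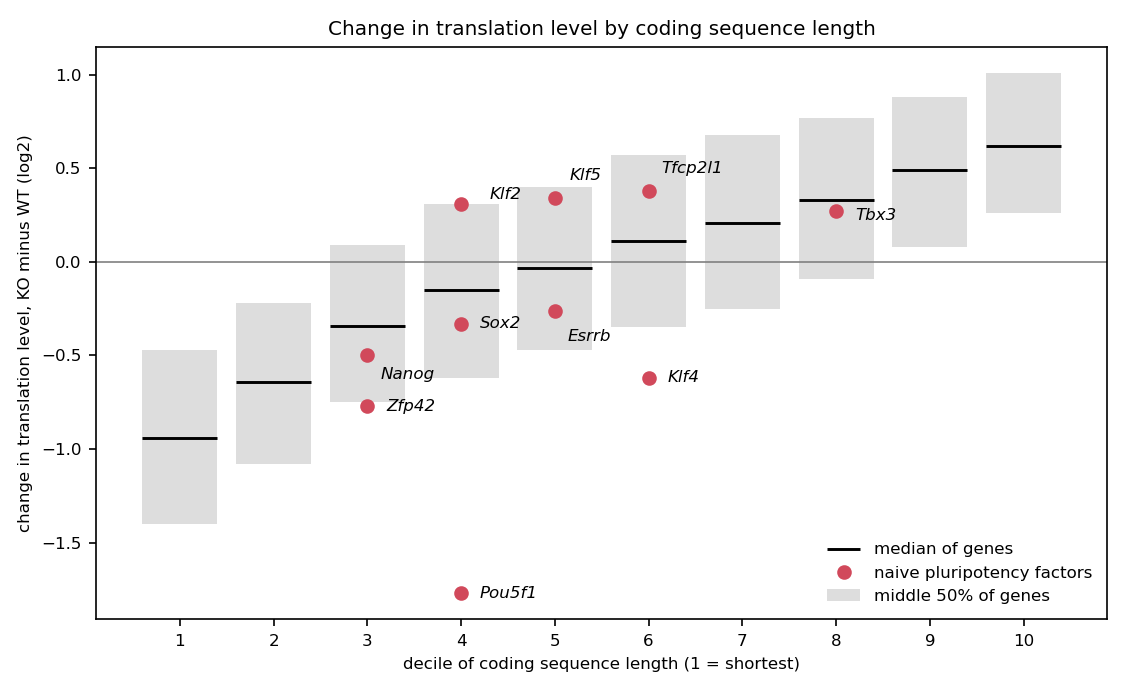
Change in translation level, KO minus WT on the log2 scale (y axis), by decile of coding sequence length (x axis). Grey boxes span the middle 50% of protein-coding genes of a decile and black lines the median, which runs from -0.94 to 0.62; red points are the 10 factors, of which Pou5f1 at -1.77 lies farthest below its box.

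The gradient was also read in its 2 steps. From monosomes to low polysomes no factor was called, where 5.03% of all genes were, and 5 of the 10 had an unadjusted p under 0.05, where 24.2% of all genes did. Tfcp2l1 alone passed the adjusted p, at 0.67 (SE 0.16, adjusted p = 0.00281): its low polysome to monosome ratio was -0.06, 0.05 and 0.24 in WT and 0.63, 0.91 and 0.68 in KO. It did not pass without WT gradient 2 (0.57, adjusted p = 0.0658), and it passed when any other gradient was left out. Without KO gradient 1, which holds the library with collagen reads, it was 0.72 (adjusted p = 0.00296). Pou5f1 stood at -0.77 (adjusted p = 0.0656), and without KO gradient 2 it was called at -1.01 (adjusted p = 0.0188).

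From low to high polysomes Pou5f1 was called, where 5.18% of all genes were. Its ratio was 0.35, 0.50 and -0.38 in WT and -0.67, -0.63 and -1.15 in KO, without overlap, and the change was -1.0 (SE 0.24, 95% interval -1.49 to -0.52, adjusted p = 0.0025). This lies on the fold threshold. The call was lost with the gradient as a block (-0.98), and with DESeq2 size factors, edgeR, DESeq2 and limma-trend (-0.98 to -0.94). It was also lost without WT gradient 1 (-0.92), WT gradient 2 (-0.78) or KO gradient 3 (-0.81). Sox2 (-0.66, adjusted p = 0.00137), Zfp42 (-0.64, adjusted p = 0.0133) and Nanog (-0.56, adjusted p = 0.0192) passed the adjusted p alone, as 17.8% of all genes did by adjusted p. Leaving out 1 gradient at a time, the highest adjusted p was 0.0557 for Sox2 (without WT gradient 2), 0.0869 for Zfp42 and 0.128 for Nanog, so none of the 3 passed in every case. Klf5 changed by 0.53 (adjusted p = 0.0797), and without KO gradient 1 by 0.73 (adjusted p = 0.00704). For Sox2 the ratio was 0.64, 0.89 and 0.67 in WT and 0.13, 0.07 and 0.03 in KO, so that its KO levels were near equal in low and high polysomes. Without KO gradient 1 the Sox2 change was -0.68.

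The signals that feed the network were read from 19 genes of the LIF-STAT3, GSK3 and BMP inputs, a list put together with earlier results of these data known. In KO monosomes 4 were called higher and none lower, where 18.1% of all genes tested were called in either direction. The counts were 5 and 1 for low polysomes (25.0% of all genes) and 3 and 3 for high polysomes (33.1%), and the medians over the fractions were 0.41, 0.50 and 0.48. The LIF receptor subunits were among those that rose. Il6st, which encodes gp130, stood at 57.6 ± 5.26 CPM in WT and 423 ± 85.6 in KO high polysomes (log2 2.86, SE 0.14, adjusted p = 3.64e-20), and its translation level rose as well (1.23, adjusted p = 0.000166). Lifr stood at 84 ± 10.6 and 263 ± 10.9 CPM there (log2 1.65, adjusted p = 1.47e-14). The kinase gene Jak1 was higher in KO high polysomes (log2 1.39, adjusted p = 6.72e-10).

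The 3 genes of the list called lower in high polysomes were Socs3, Pim3 and Pim1. Socs3, the feedback inhibitor of the pathway, stood at 71.3 ± 0.728 CPM in WT and 26 ± 10.4 in KO high polysomes (log2 -1.55, adjusted p = 5.34e-08). Pim3, a kinase gene, stood at 1044 ± 108 and 291 ± 22.1 CPM (log2 -1.84, adjusted p = 1.04e-16), and Pim1 fell by 1.19 (adjusted p = 3.61e-10). Stat3 was not called within a fraction, and its translation level rose by 1.11 (adjusted p = 3.77e-05). The BMP targets Id2 and Id3 were higher in KO monosomes (log2 2.26 and 2.28, adjusted p = 1.39e-14 and 6.23e-09), and their translation levels fell (-1.90 and -1.48, adjusted p = 1.18e-08 and 0.00101).

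Of 21 other factors of the naive and core network, monosomes had 2 calls, low polysomes 3 and high polysomes 4, beside 18.1%, 25.0% and 33.1% of all genes tested. Sall1 was higher in KO high polysomes, at 391 ± 42.3 against 134 ± 21.7 CPM (log2 1.56, adjusted p = 1.68e-13). Tcf15, a factor of cells poised to leave the naive state, was lower in all 3 fractions (log2 -2.33, -2.81 and -3.04 from monosomes to high polysomes, adjusted p = 1.1e-07, 6.12e-12 and 2.43e-08). Gbx2 was called lower in high polysomes (log2 -1.57, adjusted p = 0.0057) on 3 to 18 reads per library.

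Other markers of the naive state were called in both directions. Of 15, monosomes had 5 calls, low polysomes 7 and high polysomes 9, beside 18.1%, 25.0% and 33.1% of all genes tested. Alpl, the alkaline phosphatase used to stain ESCs, went from 734 ± 51.6 CPM in WT to 4191 ± 513 in KO high polysomes (log2 2.51, adjusted p = 1.67e-20), and Pecam1, an adhesion molecule, rose there by 1.68 on the log2 scale (adjusted p = 7.61e-16). Dppa3, a germline and naive marker, went from 57.9 ± 3.94 to 4.87 ± 0.828 CPM (log2 -3.54, adjusted p = 1.03e-14). Dppa5a was not called in monosomes (log2 -0.09) and fell in high polysomes (log2 -1.65, adjusted p = 9.36e-10), with a translation level that fell by 1.57 (adjusted p = 2.88e-05), a change of the same sign as that of Pou5f1.

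Of 21 regulators of exit from the naive state, the calls were 1 for monosomes, 4 for low polysomes and 5 for high polysomes, where 18.1%, 25.0% and 33.1% of all genes were called. Zfp706, which restrains self-renewal, was lower in KO high polysomes (log2 -1.41, adjusted p = 2.54e-12), and its translation level fell by 2.01 (adjusted p = 9.2e-11). Foxd3 was called higher in both polysome fractions (log2 1.42 and 1.05). Of 10 formative and primed markers 8 were tested, and 3, 5 and 2 were called in the same fractions. Of these calls 2, 4 and 1 were higher in KO and 1, 1 and 1 lower. Among the 4 higher calls in low polysomes was Sox3, on 5 to 7 reads per WT library and 8 to 50 per KO library. Its KO level there was 7.75 ± 6.85 CPM, so this call may rest on 1 library. Whether it holds without KO gradient 1 was not tested. The medians of the tested markers were 0.55, 0.92 and 0.36. Pou3f1, which encodes OCT6, was the only one called lower and fell in all 3 fractions (log2 -2.83, -2.20 and -3.36, adjusted p = 6.2e-06, 3.93e-06 and 9.15e-12). Lef1 rose in all 3 on 1 to 16 reads per WT library (log2 2.05, 1.75 and 1.07, adjusted p = 0.00819, 0.000371 and 0.0111). The summed formative and primed markers were 151 to 226 CPM in WT and 180 to 263 CPM in KO libraries.

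For each factor the most alike gene over the 18 libraries was sought among 7150 genes with a mean of 20 CPM or more. The points share libraries, depth and fraction, so the correlations are descriptions. Klf2 was most like Anxa4 (Pearson r = 0.98), Esrrb like Pafah1b1 (0.976), Tfcp2l1 like Cald1 (0.975), Klf4 like Tceal9 (0.945) and Nanog like Tada3 (0.934). Pou5f1 was most like H3f3b (0.913), Sox2 like Acss1 (0.911), Tbx3 like Rack1 (0.901), Klf5 like Slc38a4 (0.896) and Zfp42 like Cdc42ep3 (0.862). None of the 10 had another of the 10 as its most alike gene. Among the factors themselves r ran from -0.70 for Klf2 with Klf4 to 0.85 for Klf2 with Esrrb.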

How the data were processed

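The members and gene lists were chosen with earlier results of these data known. QuantSeq 3′ end reads of 18 libraries were used. The deposited values are raw counts per gene: the authors trimmed reads with cutadapt 1.14, aligned them to mm10 with STAR 2.5.3a keeping single-locus reads, and counted them by strand with featureCounts 1.5.3 on GENCODE M14 without rRNA. No molecular identifiers were stated, so PCR copies count as reads. The deposited gene length was used only as annotation.

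Spike-ins (92 entries, 0.000522 to 0.00215% of reads) were left out. Symbols, transcripts and 3′ UTRs came from GENCODE M21 (GRCm38; 51274 genes matched). The 12851 genes that reached 3 CPM in 3 or more libraries were scaled with TMM and fitted with limma-voom (limma 3.58.1, R 4.3.3) with 6 group means and no block. Two-sided p-values were adjusted over these genes by the Benjamini-Hochberg method, and all adjusted p-values are from limma. Limma, the filter and the interaction term follow the study's methods, and the thresholds are those it used for another comparison. The fit was tested on simulated data. Ratios per gradient are log2 with a prior count of 2. Totals of 1151649 to 4984833 counts limit precision for low genes.

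Named besides the members are Dgcr8, the most correlated gene of each member, and from each list at most 3 called genes per direction with the largest change in a comparison. Not every gene so named is described. Library marker genes Col3a1 and Col1a2 were chosen after their values were seen. edgeR 4.0.16, DESeq2 1.42.0, other filters and scalings, a replicate block and leaving out each gradient were alternatives. Fractions were collected from each sample, so a number pairs the fractions of 1 genotype: deviations from group means of same-numbered libraries correlated at 0.032 to 0.135 (18 pairs), against -0.14 to 0.076 for others. Between genotypes numbers are only shared (0 to 0.102, 9 pairs).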

Additional observations from a re-analysis of the deposited data

Results flagged for a closer look

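A difference between fractions in the effect of the genotype, tested by the interaction of genotype and fraction in limma, singled out 1 of the 10 factors. For Pou5f1 the change in translation level was -1.77 on the log2 scale, from a KO effect of 0.36 in monosomes to -1.42 in high polysomes. Its change in the high to low polysome ratio was -1.0, which lies on the fold threshold of 1. Pou5f1 is also the factor with the fewest reads, 34 to 50 in each WT monosome and 81 to 104 in each KO monosome library. Part of its 3′ end is shared with the pseudogene Gm5712 (12 of 451 windows), and the part of this in the result was not tested.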

How the results depend on the processing

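Of 1200 values of single factors under other settings, 1149 kept their direction and side of the threshold, 30 changed sign, 13 lost and 8 gained a call. The members called numbered 1 (KO against WT in monosomes), 1 (low polysomes), 2 (high polysomes), 1 (change in translation level), 0 (low polysome to monosome ratio), 1 (high to low polysome ratio), 3 (translation level in WT) and 2 (in KO). With no fold threshold they numbered 5, 7, 4, 4, 1, 4, 9 and 7. Scaled by total counts, which moved the median of all genes by 0.105 in monosomes, -0.224 in high polysomes and -0.329 in the change in translation level, 2 factors were called in that change. The high to low polysome call of Pou5f1 was lost (0 called) at -0.97 with DESeq2 size factors, -0.98 with edgeR, -0.94 with DESeq2, -0.97 with limma-trend and -0.98 with the replicate block, which pairs the fractions of a gradient. The replicate block changed no other call, and the cause was not tested. Leaving out 1 gradient at a time gave 0 to 1 called in monosomes, 0 to 1 for the low polysome to monosome ratio and 0 to 1 for the high to low polysome ratio. It gave 2 to 3 called in high polysomes, and 2 to 3 for the translation level in WT and in KO.

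Signs changed for values near 0. With total counts, high polysome values were -0.17 for Sox2 and -0.11 for Esrrb, changes in translation level -0.02 for Klf2 and -0.06 for Tbx3, low polysome to monosome changes -0.08 for Nanog and -0.03 for Esrrb, the high to low polysome change -0.16 for Tbx3 and the KO translation level of Sox2 -0.23. With a 10 CPM filter, Sox2 was -0.0017 in high polysomes and -0.09 for the KO translation level, and the WT translation level of Zfp42 was -0.04. With only the libraries compared, these translation levels were -0.01 and -0.00087. For Klf5 in high polysomes edgeR, DESeq2 and no filter each gave 0.01. Leaving out 1 gradient at a time gave -0.01 to 0.23 for Zfp42 in low polysomes, -0.18 to 0.22 for Klf5, -0.11 to 0.04 for Tbx3 and -0.12 to 0.03 for Tfcp2l1 in high polysomes, -0.10 to 0.16 for Nanog and -0.01 to 0.13 for Esrrb in the low polysome to monosome change, -0.03 to 0.13 for Tbx3 in the high to low polysome change, -0.02 to 0.18 for the WT translation level of Zfp42 and -0.01 to 0.08 for the KO translation level of Sox2. Levels of Pou5f1, at 34 to 245 reads per library, are the least precise, and intervals rest on the spread between samples.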
